A study of Mus musculus with 9 samples.

Results

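The 10 genes described here encode transcription factors of the naive pluripotency network of the mouse: Nanog, Klf2, Klf4, Klf5, Esrrb, Tbx3, Zfp42, Tfcp2l1, Nr0b1 and Prdm14. They were taken by name, with no rule on their measured values, from a table of 29069 genes, although earlier results of these data were known. All 10 were present, and all 10 were among the 18156 genes with a mean above 5 over the samples, the only genes that were tested. RNA-seq had been performed on 9 samples of the mouse embryonic stem cell line D3, an established line that had been adapted to growth without feeder cells, so every result concerns 1 line. The samples had been kept for 24 h in 1 of 3 media, with 3 replicates each. GS, the ground-state medium, was NDiff N2B27 with 1 μM PD0325901, an inhibitor of the ERK-activating kinase MEK, 3 μM CHIR99021, an inhibitor of glycogen synthase kinase that stabilises beta-catenin, and 20 ng/mL of the cytokine LIF. DM, the differentiation medium, held none of these agents and was DMEM with 10% FBS, glutamine at 4 mmol/L and glucose at 1 g/L. NO was the same DM with 250 μM DETA/NO, a slow donor of nitric oxide. DM against GS therefore compares several agents and the basal medium at once, whereas NO against DM differs by the donor. The labels do not say whether replicates were separate experiments. The authors took RNA from a dish per sample and, unless stated otherwise, report values from 3 or more independent experiments. They do not name these samples in particular, so p-values compare differences with the spread between these samples only.

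Naive pluripotency is the state of the preimplantation epiblast, and it is held in culture by a network of transcription factors that activate each other and their own genes. LIF acts through the receptor subunits Lifr and Il6st and the factor STAT3, whose known targets include Klf4 and Tfcp2l1, whereas stabilised beta-catenin lifts repression by Tcf7l1 from targets that include Esrrb, Nanog, Klf2 and Tfcp2l1. MEK and ERK signalling drives the exit from this state towards formative and primed pluripotency, in which Fgf5, Otx2 and Dnmt3a are expressed while naive factors are lost with different speed.

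RefSeq promoter sequences (GRCm38.p6) were held for 7 of the 10 genes, and the entries had none for Klf5, Tbx3 and Prdm14. The 200 bases from 250 to 51 bases upstream of the start of transcription are shown for 4 genes, 5′ to 3′ on the strand of the gene. Nanog, Tfcp2l1 and Nr0b1 are shown because their RNA differed between media, and Zfp42 because it shares an octamer core with Nanog and yet had another pattern of values. The Nanog stretch is chr6:122707239-122707438 on the plus strand, that of Zfp42 is chr8:43307060-43307259 on the minus strand, that of Tfcp2l1 is chr1:118627695-118627894 on the plus strand, and that of Nr0b1 is chrX:86191525-86191724 on the plus strand. Capitals mark every match, on either strand, to 6 short motifs chosen with these results known, namely the octamer core TTTGCAT bound by POU factors, the KLF box CACACCC, the SOX or TCF box ACAAAG, the half-site AAGGTCA of oestrogen-related receptors such as Esrrb, the STAT site TTCNNNGAA and the E-box CACCTG bound by Zeb factors.
Nanog: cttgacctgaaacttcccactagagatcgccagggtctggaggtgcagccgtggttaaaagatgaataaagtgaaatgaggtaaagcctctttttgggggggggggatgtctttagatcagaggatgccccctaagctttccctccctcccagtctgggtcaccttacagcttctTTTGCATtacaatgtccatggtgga
Zfp42: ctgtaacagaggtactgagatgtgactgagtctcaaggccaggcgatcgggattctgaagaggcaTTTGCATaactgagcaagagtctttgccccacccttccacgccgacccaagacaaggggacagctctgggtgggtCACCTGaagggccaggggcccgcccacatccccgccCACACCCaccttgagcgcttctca
Tfcp2l1: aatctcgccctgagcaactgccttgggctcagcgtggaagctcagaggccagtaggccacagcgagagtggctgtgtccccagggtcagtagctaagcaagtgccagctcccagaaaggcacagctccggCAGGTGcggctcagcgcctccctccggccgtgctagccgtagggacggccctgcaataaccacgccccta
Nr0b1: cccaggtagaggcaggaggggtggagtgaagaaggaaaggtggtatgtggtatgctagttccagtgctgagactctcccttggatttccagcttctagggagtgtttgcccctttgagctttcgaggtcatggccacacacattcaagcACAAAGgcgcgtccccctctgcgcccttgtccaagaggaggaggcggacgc
The octamer core stood 75 bases upstream of the Nanog start and 185 bases upstream of the Zfp42 start, and 3.45% of 32851 promoter entries held it in the same window. In Nanog it was followed after 1 base by ACAA, the start of a SOX site. This arrangement was taken from Nanog itself, so its match there was fixed in advance and its rarity supports nothing. It was found in 0.0244% of entries and in no other of the 7 genes. The E-box was found in Zfp42 and Tfcp2l1 (14.4% of entries), the KLF box in Zfp42 and Esrrb (5.46%), the SOX or TCF box in Nr0b1 (13.6%) and the STAT site in Esrrb (5.76%). None of the 7 held the AAGGTCA half-site (3.36%) in this window. The motifs do not overlap each other in the stretches shown, and a match gives letters only, with no measurement of binding.

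The stem cell identity of the samples was visible in all 9 libraries: Pou5f1 ranged from 4276 to 15354 normalised counts, Sox2 from 2292 to 3859 and Sall4 from 7617 to 13640. Utf1 ranged from 609 to 5464 and Lin28a from 1477 to 4634. The levels of these markers were not equal in all media, as given below for Pou5f1, Utf1 and Lin28a. A normalised count is the number of reads of a gene divided by a size factor of its library, as computed by the authors and rounded. Library totals lay between 18290445 and 20508679 after this scaling, and the steps of low values placed the underlying depth at an estimated 14.3 to 27.1 M reads. The lowest value of any of the 10 genes, 443 for Prdm14 in NO replicate 2, then rests on about 346 reads, a counting error of 5.38%.

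One library stood apart. NO replicate 2 differed from the other NO replicates by a median of 0.40 on the log2 scale over all tested genes. This median was 0.18 to 0.33 for the other 8 libraries. Of the 10 naive factors, 8 had their lowest NO value in NO replicate 2. Replicate 3 of GS and replicate 3 of DM each held the lowest value of its medium for 6 of the 10. The 10 genes summed to 93569 to 96281 normalised counts in GS and to 69905 to 73464 in DM. In NO they summed to 80816, 54298 and 77859 in replicates 1, 2 and 3. Pou5f1, which encodes Oct4, read 8983, 4276 and 9978 in the same libraries. Markers of some other cell types moved with this library too. The 7 two-cell-like markers, genes of the cleavage-stage embryo such as Zscan4c, summed to 140, 1053 and 317 in NO, to 43 to 79 in GS and to 48 to 76 in DM. The 9 trophoblast markers in the table summed to 2592, 4907 and 3305 in NO. They summed to 2027 to 2195 in GS and to 2480 to 2712 in DM. Cdh3 was the largest part of these NO sums, with 1275, 2111 and 1511, and read 1562, 1503 and 1565 in DM. Eomes (90, 91 and 118 in NO) and Elf5 (7, 4 and 9) were not raised in replicate 2. The primitive endoderm factor Gata6 read 20, 234 and 90 in NO. Its list of 10 markers went the other way, with sums of 4616, 3649 and 4301 in NO. The sums of that list were 7563 to 8366 in GS and 2950 to 3632 in DM. Most of the NO sums came from Lama1, with 4372, 2874 and 3924. Fewer cells of a type and less RNA per cell cannot be told apart in such bulk samples, and the part of other cell types in the results below was not tested. Differences of the 10 factors in NO, and the counts of each gene list in NO, are therefore given with NO replicate 2 and then without it. For the 8 factors with their lowest NO value in it, leaving it out raises the NO mean by construction. Calls made without it are thus no independent support.

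**Figure D1:**
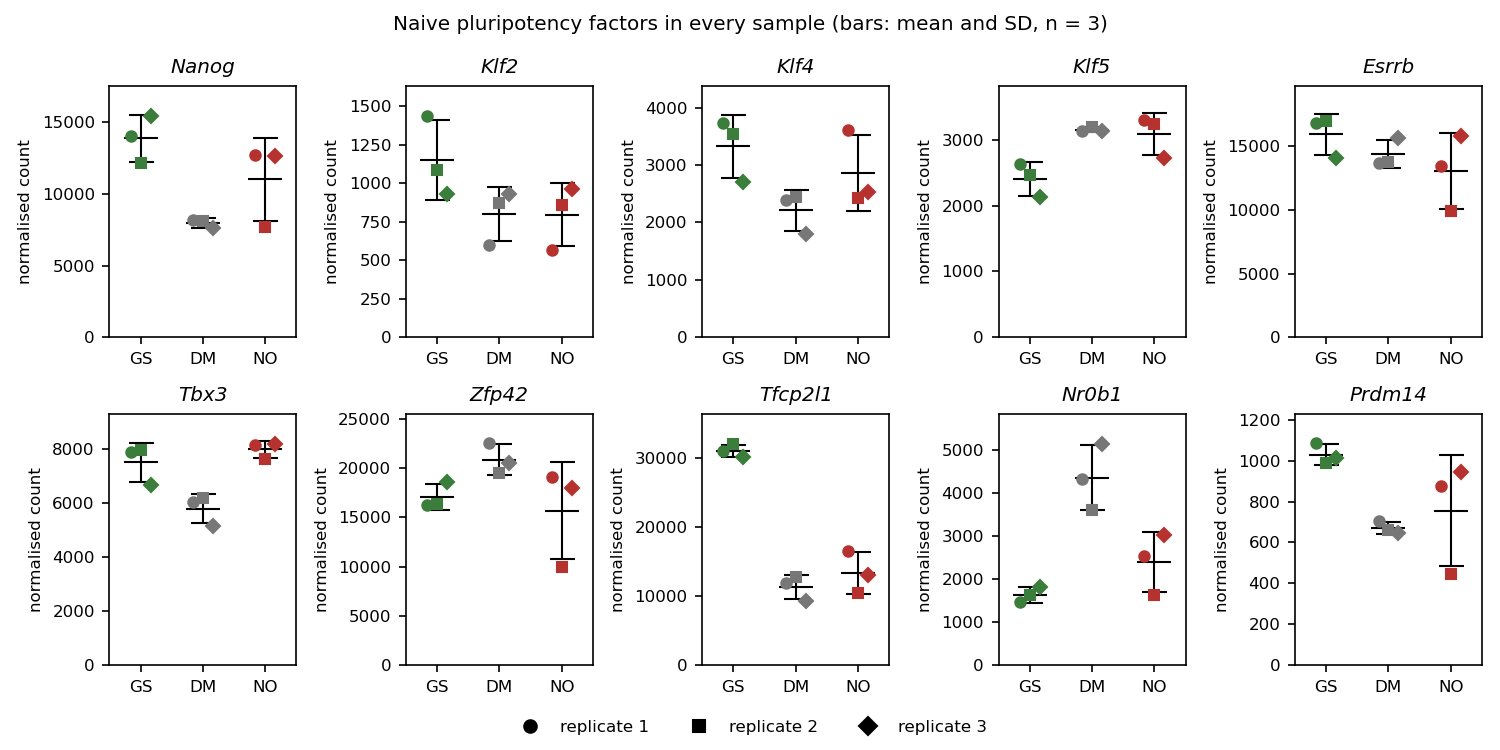
Normalised counts (vertical axes, from 0) of the 10 naive factors in GS, DM and NO, with a circle, square and diamond for replicates 1, 2 and 3 and black bars for the mean and SD (n = 3). The square of NO lies below both other NO points in 8 of 10 panels, GS stands above both other media for Tfcp2l1, and DM stands above them for Nr0b1.

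In DM against GS, 3 of the 10 factors passed the test, which means an adjusted p under 0.05 from limma after Benjamini-Hochberg adjustment over all tested genes. Tfcp2l1 and Nanog fell and Nr0b1 rose. Lower genes made up 2.32% of all genes tested and higher genes 4.37%, and 4.20% passed with a change of at least 2-fold, as Tfcp2l1 and Nr0b1 did. The median log2 fold change of the 10 factors was -0.45, beside 0.00 for all genes, with 7 negative and 3 positive values. In NO against GS only Tfcp2l1 passed, where 6.64% of all genes were called lower, 13.4% higher and 11.7% in either direction with at least 2-fold. The median of the factors was -0.27, beside -0.02 for all genes, and -0.12 without NO replicate 2, where Nr0b1 passed too. In NO against DM, Nr0b1 was called lower and Tbx3 higher, neither by 2-fold, where 5.24% of all genes were called lower, 9.01% higher and 8.55% with at least 2-fold. Here the median of the factors was 0.04, beside 0.00 for all genes, and 0.21 without NO replicate 2, where Nanog passed as higher and Tbx3 did not pass. The 3 comparisons share samples, so their values are set side by side and not correlated. One test of any difference among the media passed for 4 of the 10 factors (Tfcp2l1, Nr0b1, Nanog and Tbx3), and for 23.3% of all genes.

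**Figure D2:**
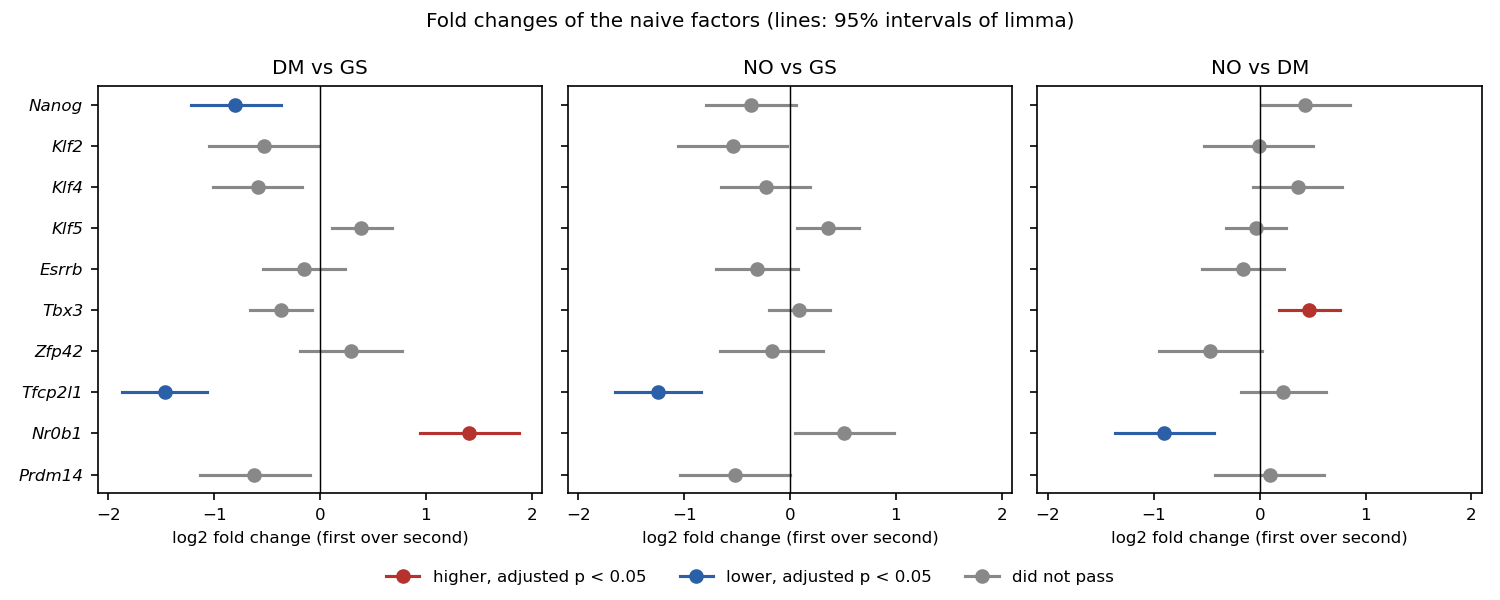
Log2 fold changes (horizontal axes, first medium over second) of the 10 factors in the 3 comparisons, with lines for the 95% intervals from limma. Coloured points passed at an adjusted p under 0.05: Nanog, Tfcp2l1 and Nr0b1 in DM against GS, Tfcp2l1 in NO against GS, and Tbx3 and Nr0b1 in NO against DM.

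Tfcp2l1 showed the widest separation from GS. The gene (ENSMUSG00000026380, chr1:118627945-118685168, GRCm38) encodes a CP2-family factor that carries part of the response of naive cells to LIF. Its normalised counts in GS were 30965, 31982 and 30213 in replicates 1 to 3. In DM they were 11814, 12742 and 9340, and in NO they were 16478, 10479 and 12991. Every DM and NO sample lay below every GS sample, while the DM and NO ranges overlapped. The mean of 31053 ± 888 (SD, n = 3) in GS thus stood beside 11299 ± 1759 in DM and 13316 ± 3013 in NO. The level was 2.77-fold lower in DM (log2 fold change -1.47 ± 0.18 SE, adjusted p = 0.000714) and 2.37-fold lower in NO (-1.25 ± 0.18, adjusted p = 0.0013) than in GS. Without NO replicate 2 the latter was -1.09 (adjusted p = 0.0019). Of all tested genes, 3.88% had a larger absolute change in DM against GS. NO against DM gave 0.22, with a 95% interval from -0.18 to 0.63 (adjusted p = 0.436), and 0.39 without NO replicate 2 (adjusted p = 0.208). Both calls against GS held under all 20 alternative settings. A small RNA model, Gm23497, overlaps 1.38% of the exon length of Tfcp2l1 on the same strand.

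Nanog, the homeodomain factor at the centre of the network, lies at chr6:122707489-122714633 (ENSMUSG00000012396). It read 14041, 12184 and 15465 in GS. The DM samples read 8190, 8140 and 7596, and the NO samples 12693, 7678 and 12681. All DM values were below all GS values, and the NO samples were split, with replicates 1 and 3 within the GS range and replicate 2 within that of DM. Nanog was 1.74-fold lower in DM than in GS (13897 ± 1645 and 7975 ± 329, SD, n = 3), or -0.80 ± 0.19 on the log2 scale (adjusted p = 0.0311). This call was lost in 8 of 20 alternatives, among them the omission of any 1 GS or DM replicate (adjusted p up to 0.137), while the value stayed between -0.89 and -0.71. The NO mean of 11017 ± 2892 differed from GS by -0.37 (95% interval -0.79 to 0.06, adjusted p = 0.203) and from DM by 0.43 (0.01 to 0.85, adjusted p = 0.155). Without NO replicate 2, Nanog was higher in NO than in DM by 0.67 on the log2 scale (adjusted p = 0.0156) and differed from GS by -0.12 (adjusted p = 0.611). This was the 1 of 20 alternatives in which NO against DM passed, with values from 0.31 to 0.67 (adjusted p up to 0.379). The annotation holds 2 processed pseudogenes of Nanog, which are not among the genes of the table.

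Prdm14 (ENSMUSG00000042414, chr1:13113457-13127163) encodes a PR-domain repressor of FGF signalling and of DNA methyltransferase genes. Its counts were 1086, 987 and 1012 in GS. They were 704, 660 and 646 in DM, and 878, 443 and 943 in NO. No sample of DM or NO reached the lowest GS value, and NO replicate 2 was the lowest of all 9 samples, with the other NO samples above every DM sample. The difference between DM and GS (670 ± 30.3 and 1028 ± 51.5, SD, n = 3) was -0.62 (95% interval -1.13 to -0.10, adjusted p = 0.164) and did not pass. It passed without NO replicate 2 (adjusted p = 0.00485), whose values enter the estimate of the spread, and in a fit of the 6 GS and DM samples (adjusted p = 0.00881). NO differed from GS by -0.52 (adjusted p = 0.141), or by -0.18 without NO replicate 2 (adjusted p = 0.404). NO differed from DM by 0.10 (adjusted p = 0.818), or by 0.44 without that library (adjusted p = 0.0582). Over the 9 samples, Nanog and Prdm14 were the pair of naive factors with the most alike patterns, with a root mean square difference of 0.18 between their log2 values centred on the mean of each gene.

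The 3 Krüppel-like factors bind GC-rich boxes, can replace each other in part, and had different patterns. Klf4 (ENSMUSG00000003032, chr4:55527143-55532466), one of the reprogramming factors, read 3735, 3546 and 2702 in GS. It read 2384, 2437 and 1805 in DM and 3618, 2433 and 2533 in NO. The DM samples lay below the GS samples, and NO overlapped both. The difference in DM against GS was -0.59 (95% interval -1.01 to -0.17, adjusted p = 0.0995). It did not pass, although it did so without NO replicate 1 (adjusted p = 0.0497). NO differed from GS by -0.23 (adjusted p = 0.433) and from DM by 0.36 (adjusted p = 0.221), and by -0.12 and 0.47 without NO replicate 2.

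Klf2 (ENSMUSG00000055148, chr8:72319033-72321656), whose protein is known to be removed after phosphorylation by ERK, read 1438, 1087 and 927 in GS. Its values were 599, 869 and 926 in DM and 568, 857 and 960 in NO. The highest DM value was 1 count below the lowest GS value, and the ranges of DM and NO nearly coincided. The differences from GS were -0.53 in DM (95% interval -1.05 to -0.01, adjusted p = 0.242) and -0.54 in NO (-1.06 to -0.03, adjusted p = 0.127), and neither passed. NO against DM gave -0.01 (-0.53 to 0.50, adjusted p = 0.975), with a sign that turned under other scalings. The NO differences were -0.62 from GS and -0.09 from DM without NO replicate 2.

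Klf5 (ENSMUSG00000005148, chr14:99298691-99315036), which also acts in the trophectoderm, was the Krüppel-like member with values above those of GS. It read 2627, 2469 and 2126 in GS, 3131, 3193 and 3130 in DM, and 3301, 3239 and 2720 in NO. All DM and NO samples exceeded all GS samples. The differences of 0.39 in DM (95% interval 0.11 to 0.68, adjusted p = 0.107) and 0.36 in NO (0.07 to 0.65, adjusted p = 0.074) did not pass. In NO against GS the call was reached when libraries were scaled to equal totals (0.47, adjusted p = 0.0353) or quantile normalised (0.48, adjusted p = 0.0327), and without NO replicate 2 the value was 0.32 (adjusted p = 0.154). NO against DM gave -0.04 (-0.32 to 0.25, adjusted p = 0.884), a sign that turned under both of those scalings, and -0.07 without NO replicate 2.

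Tbx3 (ENSMUSG00000018604, chr5:119670669-119684724) encodes a T-box factor linked to LIF signalling and to extraembryonic endoderm. Its counts were 7898, 7976 and 6685 in GS. In DM they were 6055, 6194 and 5176, and in NO 8179, 7642 and 8198. The DM samples were the lowest, whereas the NO samples lay within or above the GS range, NO replicate 2 included. Tbx3 was 1.38-fold higher in NO than in DM (8006 ± 316 and 5808 ± 552, SD, n = 3), or 0.47 ± 0.13 on the log2 scale (adjusted p = 0.0383). The call was lost in 12 of 20 alternatives (adjusted p up to 0.105), including the omission of NO replicate 2 (0.50, adjusted p = 0.0531) and a fit of the 6 NO and DM samples with the replicate number as a block (0.47, adjusted p = 0.0603). The differences from GS were -0.37 in DM (95% interval -0.66 to -0.08, adjusted p = 0.133) and 0.09 in NO (-0.20 to 0.38, adjusted p = 0.655), the latter 0.13 without NO replicate 2. The antisense gene Tbx3os1 overlaps 1.74% of the exon length of Tbx3, and reads of this stretch cannot be told apart if counting ignored strand, which is not given in the sources used here.

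Esrrb (ENSMUSG00000021255, chr12:86361117-86521628) encodes an orphan nuclear receptor that is a main target of the beta-catenin and Tcf7l1 axis. It read 16800, 16957 and 14055 in GS, 13659, 13805 and 15641 in DM, and 13441, 9905 and 15841 in NO. The 3 media overlapped, and NO replicate 2 was the lowest sample. No comparison passed: the differences were -0.15 in DM against GS (95% interval -0.54 to 0.24, adjusted p = 0.711), -0.31 in NO against GS (-0.70 to 0.08, adjusted p = 0.245) and -0.16 in NO against DM (-0.55 to 0.23, adjusted p = 0.579). Without NO replicate 2 the NO values became -0.12 against GS and 0.03 against DM. The lower end of the interval in DM against GS, -0.54 on the log2 scale, lay above the upper end of that of Tfcp2l1, -1.07.

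Zfp42 (ENSMUSG00000051176, chr8:43295063-43306980) encodes the zinc finger protein Rex1, a widely used marker of the naive state. It read 16236, 16394 and 18573 in GS. The DM samples read 22594, 19569 and 20509, and the NO samples 19125, 9994 and 17975. All DM samples were above all GS and NO samples, and NO replicate 2 lay far below the other 8. The difference in DM against GS was 0.29 (95% interval -0.19 to 0.77, adjusted p = 0.512) and did not pass. NO differed by -0.17 from GS (-0.66 to 0.31, adjusted p = 0.613) and by -0.47 from DM (-0.95 to 0.02, adjusted p = 0.172). Without NO replicate 2 the NO values were 0.12 against GS, with the sign turned, and -0.17 against DM (adjusted p = 0.627 and 0.538).

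Nr0b1 went the other way. The gene (ENSMUSG00000025056, chrX:86191764-86195947) encodes Dax1, an orphan nuclear receptor without a classical DNA-binding domain that binds Oct4 and other receptors and limits their activity. It read 1455, 1623 and 1811 in GS. In DM it read 4334, 3621 and 5136, and in NO 2535, 1628 and 3017. Every DM sample exceeded every GS and NO sample, and NO replicates 1 and 3 stood between the other media, while NO replicate 2 was within the GS range. Nr0b1 was 2.66-fold higher in DM than in GS (4364 ± 758 and 1630 ± 178, SD, n = 3), or 1.41 ± 0.21 on the log2 scale (adjusted p = 0.00229), a call kept in all 20 alternatives. It was 1.86-fold lower in NO (2393 ± 705) than in DM, by -0.90 ± 0.21 on the log2 scale (adjusted p = 0.0201). This call held in 16 of 20 alternatives and was lost without DM replicate 1 (-0.90, adjusted p = 0.0602), without DM replicate 3 (-0.77, adjusted p = 0.065), with only the 6 NO and DM samples (adjusted p = 0.0592) and without the mean-variance trend (adjusted p = 0.0608). Without NO replicate 2 it was -0.64 (adjusted p = 0.0403). NO against GS gave 0.51 (95% interval 0.05 to 0.98, adjusted p = 0.112), and 0.77 without NO replicate 2, where it passed (adjusted p = 0.0112).

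**Figure D3:**
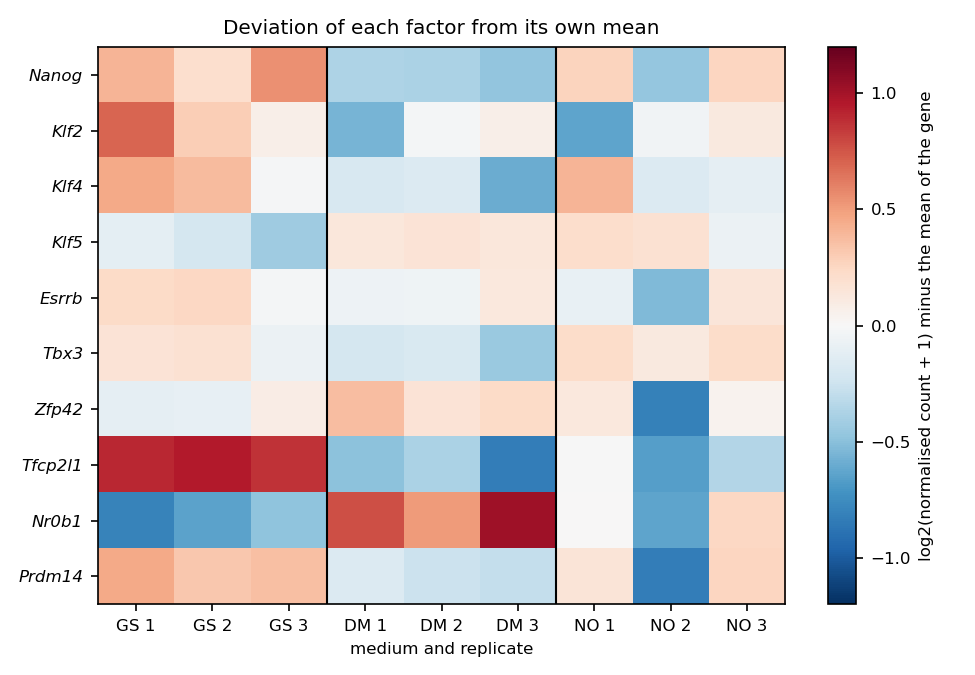
Deviation of each factor (rows) in each sample (columns, medium and replicate) from the mean of that gene over the 9 samples, in units of log2(normalised count + 1), with red above and blue below the mean. Tfcp2l1 is above its mean in the GS columns only, Nr0b1 is reddest in the DM columns, and the column of NO replicate 2 is blue for 8 of 10 genes.

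Nr0b1 and Tfcp2l1 were the most unlike pair over the 9 samples, with a root mean square difference of 1.22 between centred log2 values. Klf4 and Tbx3 were close, at 0.20. By the same measure, the nearest genes were sought among the tested genes, leaving out those with clone or gene model names. For Tfcp2l1 they were Lama1, a laminin chain of basement membrane (0.11, with means of 7824, 3224 and 3723 in GS, DM and NO), and Gpr126, an adhesion receptor (0.14). The median over the genes searched was 0.75. Eno3, the muscle form of enolase (0.15, with means of 259, 682 and 376), and Fndc4 (0.17) were nearest to Nr0b1, beside a median of 0.72. Nearest to Nanog were Zdhhc2, a palmitoyltransferase (0.13), and Spats1 (0.15), beside 0.51. Nearest to Tbx3 were Chst3, a sulfotransferase (0.08), and Ppip5k1, an inositol phosphate kinase (0.09), beside 0.41. These distances are descriptions over 9 samples that share libraries.

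Levels of different genes were compared as normalised counts per kb of annotated exon. In GS, Zfp42 was first (9074 ± 694 per kb, SD, n = 3), followed by Nanog (6198 ± 734), Tfcp2l1 (3290 ± 94.1) and Esrrb (2636 ± 270). After a wide step came Tbx3 (1135 ± 109) and Klf4 (1091 ± 180), whose samples overlapped, then Nr0b1 (901 ± 98.5), Klf2 (623 ± 142), Klf5 (463 ± 49.2) and Prdm14 (401 ± 20.1). Samples overlapped between neighbours in this order for Tbx3 and Klf4, Klf4 and Nr0b1, Klf2 and Klf5, and Klf5 and Prdm14, and for no others. In DM the order below Nanog was different, because Nr0b1 (2414 ± 419 per kb) came next, level with Esrrb (2376 ± 183), and Tfcp2l1 (1197 ± 186) followed these. In NO, Esrrb (2160 ± 494 per kb), Tfcp2l1 (1411 ± 319), Nr0b1 (1324 ± 390) and Tbx3 (1209 ± 47.7) followed Nanog, with overlap between each and the next. Zfp42 and Nanog were first and second, and Prdm14 last, in all media.

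**Figure D4:**
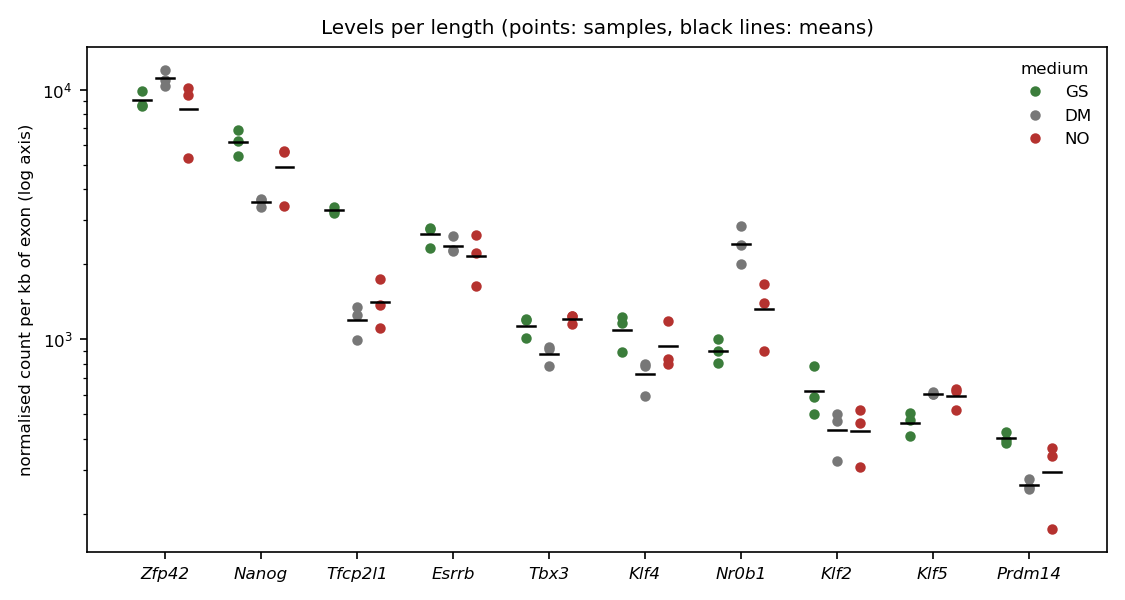
Normalised counts per kb of exon (vertical log axis) of the 10 factors, ordered by their GS mean, with green, grey and red points for the GS, DM and NO samples and black lines for means. Tfcp2l1 is lower in DM and NO than in GS (1197 and 1411 beside 3290 per kb), and Nr0b1 is higher in DM (2414 beside 901 per kb).

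The signals that feed the network were then examined with gene lists. In all 9 samples, 2.32% of all tested genes were lower and 4.37% higher in DM against GS. The shares were 6.64% and 13.4% in NO against GS, and 5.24% and 9.01% in NO against DM. They stand beside the counts of every list below in all 9 samples, and no list was tested against them. Without NO replicate 2, more genes passed in DM against GS (1922 beside 1215). List counts given without this library therefore have no matching share here. Of 9 genes of the LIF and STAT3 input, 2 passed as lower and none as higher in DM against GS (median log2 fold change -0.27), and 4 as lower and none as higher in NO against GS (-0.36). Socs3, the feedback inhibitor induced by STAT3, had 2844 ± 201 normalised counts in GS, and was lower with 1306 ± 90.7 in DM (-1.12 ± 0.12, adjusted p = 0.000288) and 1536 ± 4.04 in NO (-0.89 ± 0.12, adjusted p = 0.000944). The 1 call among the 9 in NO against DM (median -0.09) was Il6st, the LIF co-receptor gp130, which read 1309, 790 and 1121 in NO beside 1592 ± 56.9 in DM (-0.60 ± 0.17, adjusted p = 0.0363). When NO replicate 2 was left out, 4 were lower and none higher in NO against GS, the call of Il6st in NO against DM was lost (-0.39, adjusted p = 0.0785), and the counts in DM against GS were 3 lower and 1 higher.

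Of 10 genes of the beta-catenin input, 4 were lower in DM and 5 in NO than in GS, and none was higher (medians -0.03 and -0.92), with the same counts without NO replicate 2. Cdx1, a direct beta-catenin target, went down from 632 ± 104 in GS, with 19.3 ± 3.06 in DM (-4.96 ± 0.22, adjusted p = 1.25e-06) and 49.7 ± 3.21 in NO (-3.63 ± 0.22, adjusted p = 1.40e-05). Between NO and DM, 1 of the 10 was lower in NO and 2 were higher (median 0.25), or 1 and 1 without NO replicate 2. Cdx1 was higher (1.33 ± 0.22, adjusted p = 0.00498), and Lef1, a nuclear partner of beta-catenin, was lower (-2.75 ± 0.42, adjusted p = 0.00347) at 6.67 ± 3.51 beside 46.7 ± 5.03 normalised counts.

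Of 12 ERK feedback genes, 5 were higher and none lower in DM against GS (median 0.93), and 6 were higher and 1 lower in NO against GS (0.92), or 5 and none without NO replicate 2. Dusp6, the phosphatase that dampens ERK, rose from 399 ± 104 in GS to 2013 ± 229 in DM (2.36 ± 0.19, adjusted p = 7.21e-05) and 1418 ± 175 in NO (1.85 ± 0.19, adjusted p = 0.00042). Compared with DM, 3 were lower and 1 was higher in NO (median -0.26), or 2 and 1 without NO replicate 2. The immediate early gene Fos was the higher one (1.96 ± 0.43, adjusted p = 0.0142), with 112, 495 and 211 in NO, the highest in replicate 2, and passed without it (adjusted p = 0.0216). Ier3 was among the lower ones (-1.76 ± 0.31, adjusted p = 0.0065).

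The regulators of exit from the naive state, a list of 9, had 2 higher genes and no lower one in DM and in NO against GS (medians 0.13 and 0.10), or 1 higher in NO without NO replicate 2. Rbpj, the DNA-binding effector of Notch, was higher in DM (4148 ± 542 beside 1973 ± 104 in GS, 1.06 ± 0.18, adjusted p = 0.0047) and in NO (0.67 ± 0.18, adjusted p = 0.0251). Jarid2, a Polycomb partner, was the only one called in NO against DM (median 0.01), where it was lower (-0.46 ± 0.13, adjusted p = 0.044), a call lost without NO replicate 2 (-0.36, adjusted p = 0.122).

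Formative and primed genes moved apart between DM and NO. Of 12, 10 were higher in DM than in GS (median 1.61), against 4 in NO (0.51), and none was lower in either. These counts were 11 and 5 without NO replicate 2. Compared with DM, 5 were lower in NO and none was higher (-0.84), with 5 and none without NO replicate 2. Summed normalised counts were 4716 to 5366 for the GS samples, 11784 to 12615 for those of DM, and 6782, 4810 and 5584 in NO, so the NO samples were all below the DM samples and partly within the GS range. Dnmt3a, a de novo DNA methyltransferase, read 1086 ± 70.1 in GS, 4137 ± 260 in DM and 1859, 1225 and 1328 in NO (1.93 ± 0.16, adjusted p = 8.54e-05 in DM against GS, and -1.51 ± 0.16, adjusted p = 0.00104 in NO against DM). In NO against GS, Dnmt3a did not pass (0.41 ± 0.16, adjusted p = 0.0868), but it passed as higher without NO replicate 2 (0.53, adjusted p = 0.0412). Among the 10 naive factors only Nr0b1 had this order of media, high in DM and lower in NO with both calls passed.

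The 22 other genes of the naive network were divided in direction: 4 were lower and 4 higher in DM against GS (median 0.22), 3 and 3 in NO against GS (-0.12), and 4 lower and 1 higher in NO against DM (-0.30). Of all genes tested in the 9 samples, 2.32% were lower and 4.37% higher in DM against GS. These shares were 6.64% and 13.4% in NO against GS, and 5.24% and 9.01% in NO against DM. Leaving out NO replicate 2 gave 2 lower and 3 higher in NO against GS, and 3 lower and none higher in NO against DM. Fbxo15, an F-box gene known as an Oct4 target, was lower in DM than in GS (2603 ± 187 beside 4743 ± 753, -0.86 ± 0.14, adjusted p = 0.00322) and higher in NO than in DM (3751, 3820 and 3763 in NO, 0.54 ± 0.14, adjusted p = 0.0253), the latter lost without NO replicate 2 (0.53, adjusted p = 0.0517). Dppa3, which protects maternal methylation marks, was lower in NO than in GS (48, 10 and 25 in NO beside 215 ± 48.4, -3.14 ± 0.47, adjusted p = 0.00136, and -2.57 without NO replicate 2). Gbx2, a LIF-responsive homeobox gene, was lower in NO than in DM (113 ± 31.2 beside 315 ± 56.1, -1.50 ± 0.25, adjusted p = 0.00476, and -1.25 without NO replicate 2). Pou5f1 was also lower in NO than in DM (-0.95 ± 0.26, adjusted p = 0.0349), and kept this call without NO replicate 2 (-0.57, adjusted p = 0.0423). Outside this list, Utf1 (-1.59 ± 0.32, adjusted p = 0.0107) and Lin28a (-1.14 ± 0.18, adjusted p = 0.00379) were lower there too. Both were higher in DM than in GS (2.18 ± 0.32, adjusted p = 0.00198, and 0.72 ± 0.18, adjusted p = 0.0322). Neither passed in NO against GS (0.60 and -0.41, adjusted p = 0.213 and 0.122). Their NO values were lowest in replicate 2 (783 for Utf1 and 1477 for Lin28a), and no values without it are given for them. Sox2 did not pass in NO against DM (-0.14, adjusted p = 0.659).

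Markers of other fates were read in the same samples. Beside their counts in all 9 samples, 2.32% of all tested genes were lower and 4.37% higher in DM against GS. The shares were 6.64% and 13.4% in NO against GS, and 5.24% and 9.01% in NO against DM. All 7 two-cell-like markers were higher in NO than in GS and 4 higher than in DM (median log2 fold changes 2.55 and 2.63), and none passed in DM against GS. These counts were 2 and 1 without NO replicate 2 (medians 1.73 and 1.68). Of 9 trophoblast markers, 4 were higher in NO than in each other medium, with 1 lower in NO against GS, and 1 higher and 2 lower in DM against GS (medians 0.92, 1.12 and -0.31). Leaving out NO replicate 2, 4 were higher and 2 lower in NO against GS, and 3 higher against DM. Among 8 primitive endoderm markers tested, 2 were higher in NO against each other medium and 1 was lower in both DM and NO against GS (medians 0.97, 0.81 and, in DM against GS, 0.02). None was higher in NO against GS and 1 against DM without NO replicate 2, and 1 was still lower against GS. The lower gene was Lama1, also the nearest to Tfcp2l1 of the genes searched above (-1.29 ± 0.17 in DM, adjusted p = 0.000922, and -1.09 ± 0.17 in NO, adjusted p = 0.00156). Sox7 and Foxa2 of this list had a mean of at most 5. Of 8 mesendoderm markers tested, 3 were lower in DM and 3 in NO than in GS, and 3 were higher in NO against GS and 3 against DM (medians -0.46, 0.64 and 1.53), or 1 in each without NO replicate 2. Mesp2 read 59, 144 and 89 in NO and was higher there than in DM (2.09 ± 0.38, adjusted p = 0.00682, and 1.76 without NO replicate 2). T was lower in DM than in GS (3.67 ± 5.51 beside 150 ± 28.4, -5.74 ± 0.74, adjusted p = 0.000882). It was lower in NO than in GS too (19.3 ± 10.3, -3.04 ± 0.74, adjusted p = 0.0151). Eomes was lower in NO than in GS (99.7 ± 15.9 beside 278 ± 43.0, -1.47 ± 0.22, adjusted p = 0.00144, and -1.41 without NO replicate 2). Of 4 neuroectoderm markers tested, 1 was lower in NO against DM and no other call was made, while 1 was also lower in NO against GS without NO replicate 2. Of 8 primordial germ cell markers, some of which are also naive or trophoblast genes, 2 were lower and 2 higher in DM against GS, 1 lower and 2 higher in NO against GS, and 1 lower and 3 higher in NO against DM. For NO these became 2 lower and 1 higher against GS, and none lower and 1 higher against DM, without NO replicate 2. Of 5 fibroblast markers tested, 1 was higher in DM against GS, 1 lower and 2 higher in NO against GS, and 1 higher in NO against DM. With NO replicate 2 left out, 1 was lower and 1 higher in NO against GS, and none passed in NO against DM. Summed normalised counts were 318 to 496 for the GS samples, 412 to 447 for those of DM and 381 to 406 in NO, while Dcn, Lum and Postn had a mean of at most 5.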

How the data were processed

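RNA-seq libraries of D3 cells were processed by the authors with FastQC 0.11.2, STAR 2.4.0a and featureCounts 1.4.5-p1, excluding reads that map to several places, and counts were divided by DESeq2 size factors. The deposited values are these normalised counts rounded to whole numbers (unit score, not raw counts), so no count model was run. Values were analysed as log2(value + 1) in 1 fit of all 9 samples with limma 3.58.1 (R 4.3.3, mean-variance trend), two-sided, for genes with a mean above 5. The script was tested on simulated data. This pseudocount understates fold changes of low genes. Exon lengths came from GENCODE M21, which held 28539 of the 29069 gene identifiers.

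Added after seeing the data were a fit of the 6 samples of a comparison with the replicate number as a block, and list counts without NO replicate 2. Replicate numbers come from the titles. Deviations of same-numbered samples from their media correlated at 0.16, 0.17 and 0.30 between NO and DM, above 0.1 for every pair, but from -0.23 to 0.05 between GS and the other media. Blocking on the number in the 9-sample fit changed no call of the 10 factors.

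The 10 factors, gene lists and motifs were chosen with earlier results of these data known. Genes named are the 10 factors, the 2 genes nearest to each factor that passed, and per list at most the gene of smallest adjusted p in each direction, besides stem cell markers. Some genes this rule names are not reported here.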

Additional observations from a re-analysis of the deposited data

How the results depend on the processing

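The falls of Tfcp2l1 in DM and NO against GS and the rise of Nr0b1 in DM were called in all 20 alternatives. With a replicate block in the 9-sample fit, 3, 1 and 2 factors passed in DM against GS, NO against GS and NO against DM, as without it, and 964, 3386 and 2437 genes passed beside 1215, 3640 and 2587. With only the 6 samples compared and the replicate block, 697 genes passed in DM against GS and 1 factor in NO against DM. With only the 6 samples and no block, 0 factors and 1107 genes passed in NO against DM. Without a minimum mean, 1 factor passed in NO against DM and 2 differed among the media. Without the mean-variance trend these numbers were 0 and 2, and 1464 genes passed in NO against DM. With a 2-fold minimum, 763, 2127 and 1552 genes and, in NO against DM, 0 factors passed. Equal totals and quantile normalisation each gave 2 factors in NO against GS. Leaving out 1 replicate gave 2 to 4, 1 to 2 and 0 to 2 factors in the 3 comparisons and 2 to 5 for a difference among media, with 632 to 1922, 2051 to 4986, 1150 to 4319 and 2569 to 5705 genes. In DM against GS the highest count was without NO replicate 2. In NO against DM the highest was without NO replicate 1 and the lowest without DM replicate 2. The cause was not tested.

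Signs turned only for values that were far from passing in the main fit of all 9 samples. In NO against DM, Klf2 became 0.07 with equal totals, 0.00 with quantile normalisation, and 0.06, 0.10 and 0.21 without DM replicate 2, DM replicate 3 and NO replicate 1 (range -0.21 to 0.21). Klf5 became 0.05 with equal totals, 0.07 with quantile normalisation and 0.05 without NO replicate 3 (range -0.09 to 0.05). Esrrb became 0.02 with quantile normalisation and 0.03 without NO replicate 2 (range -0.31 to 0.03). Prdm14 became -0.05 and -0.10 without NO replicates 1 and 3 (range -0.10 to 0.44). Without NO replicate 2 it was 0.44 and close to passing (adjusted p = 0.0582), so its sign depended on the NO library left out. Zfp42 in NO against GS became 0.11 with quantile normalisation and 0.12 without NO replicate 2 (range -0.35 to 0.12). Ranges are over the omission of each replicate. Quantile normalisation placed the median of all genes in NO against GS at -0.11. Equal totals raised the share of higher genes among calls from 66.9% to 81.9% in NO against GS and from 63.2% to 77.1% in NO against DM.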

Other observations

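Relatives of the naive factors were read in the same fit. Over all 9 samples, 2.32% of tested genes were lower and 4.37% higher in DM against GS. The shares were 6.64% and 13.4% in NO against GS, and 5.24% and 9.01% in NO against DM. Of 13 other Krüppel-like genes tested, none passed in DM against GS (median log2 fold change 0.06), 1 was lower and 2 were higher in NO against GS (-0.21), and 1 was lower in NO against DM (-0.01). Klf8 was lower in NO than in GS (1447, 983 and 1372 beside 1978 ± 173 normalised counts, SD, n = 3, a log2 fold change of -0.66 ± 0.18 SE, adjusted p = 0.0223 in limma). Klf12 was higher there from low counts (50, 86 and 60 beside 25.7 ± 6.51, 1.31 ± 0.33, adjusted p = 0.0164). Klf16 was lower in NO than in DM (668, 512 and 612 beside 981 ± 174, -0.71 ± 0.18, adjusted p = 0.027). Klf14 had a mean of at most 5.

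Of 6 tested relatives and partners of the other factors, none passed in DM against GS. Cbfa2t2, a corepressor that binds Prdm14, was lower in NO than in GS (2499, 1436 and 1847 beside 2837 ± 56.7, -0.59 ± 0.19, adjusted p = 0.0454). Its lowest value was in NO replicate 2, as for Prdm14. Tfcp2, the ubiquitous relative of Tfcp2l1, was higher in NO than in DM (632, 955 and 759 beside 449 ± 34.2, 0.78 ± 0.17, adjusted p = 0.0124), with its highest value in that library. Without that library, the calls of Klf8 (-0.49, adjusted p = 0.0603), Klf12 (1.09, adjusted p = 0.0534), Klf16 (-0.60, adjusted p = 0.0789) and Cbfa2t2 (-0.40, adjusted p = 0.134) were lost, and that of Tfcp2 was kept (0.63, adjusted p = 0.0284). In DM against GS, 1 other Krüppel-like gene was then lower and 1 higher. That fit called 1922 of all tested genes in DM against GS, beside 1215 with that library.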
